A study of Rattus norvegicus with 232 samples.

Results

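Slc17a7, Tbr1, Neurod6, Rorb, Cux2, Fezf2, Lamp5, Foxp2 and Emx1, which are used as markers of the glutamatergic neurons of the cortex, were described across inbred rat strains. They were taken as a list of gene names, and all 9 were found among the 20859 genes of the RefSeq gene table that the authors call version 7.1. For each gene the level was compared between strains, and the movement of the genes with each other was compared between animals of the same strain. The questions were how much of the variation of each gene lay between strains, and whether the 9 genes rose and fell together, as genes of a shared population of cells could.

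The animals belong to the Hybrid Rat Diversity Panel, a collection of inbred rat strains whose members are near identical in genotype within a strain. Total RNA of whole brain, depleted of ribosomal RNA, was sequenced from untreated rats. They were young adult males according to the study's methods for its first strains, and the labels call them male wherever a sex is given. The methods also state that brains were split along the midline and that a single side was sequenced, so that each library holds cortex together with every other region of that side. The table holds 214 libraries, which were reduced to 197 animals of 74 strains. The HXB/BXH recombinant inbred panel, bred from SHR/OlaIpcv and BN-Lx/Cub, gave 88 animals of 30 strains. The FXLE/LEXF recombinant inbred panel, bred from F344/Stm and LE/Stm, gave 43 animals of 19 strains. The remaining 66 animals came from 25 classic inbred strains, among which the labels count these 4 progenitors. Of the 74 strains, 54 had 3 animals, 15 had 2 and 5 had 1, and no strain received a treatment, a transgene or a deletion.

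Glutamatergic neurons of the cortex arise from the dorsal part of the developing forebrain, the pallium, and send excitatory axons within the cortex and to other parts of the brain. They are ordered in layers, and the layers differ in the transcription factors that their neurons keep into adult life. Slc17a7 encodes VGLUT1, the vesicular glutamate transporter that fills synaptic vesicles in most of these neurons. Emx1 is a homeobox factor of the pallium, Neurod6 is a basic helix-loop-helix factor of differentiating and mature pallial neurons, and Tbr1 is a T-box factor of the early-born deep-layer neurons. Fezf2 is a zinc-finger factor that specifies subcortical projection neurons, Cux2 is a homeobox factor of upper layers, and Rorb is a nuclear receptor of layer 4. Foxp2 is a forkhead factor of corticothalamic neurons of layer 6, and Lamp5 encodes a membrane protein of upper-layer neurons. None of them is confined to these cells in the brain. Foxp2 is also transcribed in the striatum, the thalamus and Purkinje cells, Rorb in the thalamus, and Lamp5 in a class of interneurons.

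Values are on a log2 scale that the authors normalised across libraries, so that a difference of 1 is a doubling. They are not divided by the length of the transcript, and levels are therefore compared between animals and not between genes. Read counts were not given, so that the depth is unknown. The library medians lay between 8.185 and 8.424. Several animals stood out in other genes and were treated as going against their labels. LE/Stm animal 2 had an Alb value of 23.18, against a median of 11.37 and a highest other value of 17.23. The 3 LEW/Crl animals and HXB17/Ipcv animal 2 had the 4 lowest values of the Y-linked genes Eif2s3y, at 9.072 to 9.553 against at least 9.956 in all other animals, and Kdm5d, at 9.322 to 9.641 against at least 10.21. Whether these lower values reflect sex or strain was not tested. Over the 500 genes of highest strain effect, with LE/Stm animal 2 left out, 2 animals were nearer to another strain than to their own. F344/Stm animal 1 had a mean correlation of 0.0741 with its own strain and 0.542 with F344/NHsd, another F344 substrain. These values do not settle which of the 3 F344/Stm animals departs from its label. LEXF2C/Stm animal 3 had 0.0978 with its own strain and 0.414 with LEXF5/Stm. The counts of genes and of pairs that pass are therefore also given without these animals and the other 2 of F344/Stm, 9 in all.

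Every gene varied over a modest range. Slc17a7 ran from 13.944 in BN-Lx/Cub animal 1 through a median of 14.507 to 15.086 in SR/JrHsd animal 1, a 2.21-fold span. Emx1 had the widest span of the 9 genes, 2.83-fold, from 6.0104 in BXH8/Cub animal 3 through 6.6369 to 7.5132 in SR/JrHsd animal 1. Neurod6 ran from 9.8343 in COP/CrCrl animal 2 through 10.31 to 10.985 in BN-Lx/Cub animal 1. These 3 genes already place the same 2 animals at opposite ends: SR/JrHsd animal 1 was highest for Slc17a7 and Emx1, whereas BN-Lx/Cub animal 1 was lowest for Slc17a7 and highest for Neurod6.

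Tbr1 ran from 9.9775 in HXB23/Ipcv animal 2 through 10.595 to 11.203 in BXH13/Cub animal 2. Fezf2 ran from 7.8203 in HXB31/Ipcv animal 3 through 8.3155 to 8.865, again in SR/JrHsd animal 1. Cux2 ran from 10.255 in BN-Lx/Cub animal 1 through 10.862 to 11.352 in LEXF5/Stm animal 2. Different strains thus held the highest animals of these 3 layer factors.

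Rorb had the narrowest span, 1.73-fold, from 9.2445 in SR/JrHsd animal 1 through 9.6539 to 10.035 in BN-Lx/Cub animal 1. Foxp2 ran from 9.1594 in HXB18/Ipcv animal 3 through 9.7128 to 10.211 in BN-Lx/Cub animal 1. Lamp5 ran from 11.285 in LEXF9/Stm animal 2 through 11.784 to 12.182 in SR/JrHsd animal 1. Rorb thus had its lowest animal where Slc17a7, Emx1, Fezf2 and Lamp5 had their highest. Normal mixtures of 1 to 3 clusters placed the strain means of each of the 9 genes in 1 cluster, over the 30 HXB/BXH strains as over all 69 strains with 2 or more animals. In bulk tissue a lower level of these genes in fewer cells, or in as many cells with less RNA each, cannot be told apart.

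**Figure D1:**
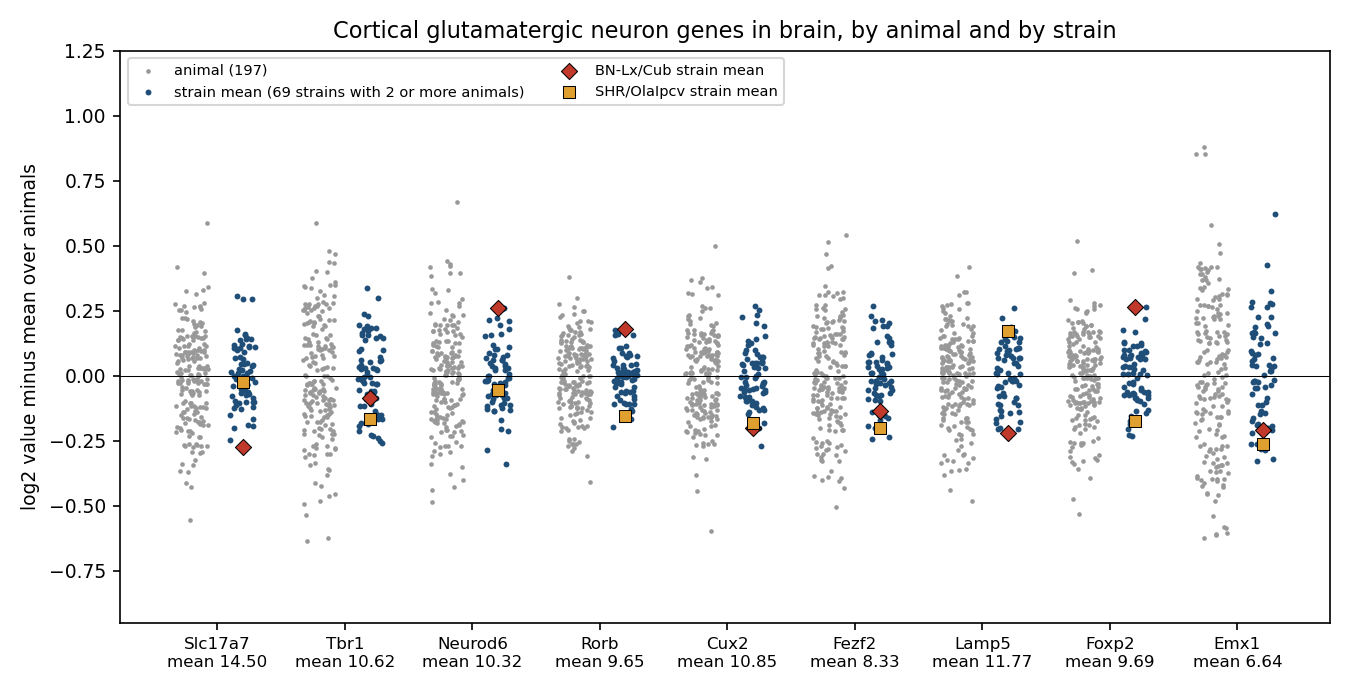
Level of each of the 9 genes minus its mean over animals, in log2 units. Grey points are the 197 animals, blue points the means of the 69 strains with 2 or more animals, and BN-Lx/Cub and SHR/OlaIpcv are marked. The strain means sit within the cloud of animals, and their span is widest for Emx1 (0.949) and narrowest for Rorb (0.377).

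The first comparison asked how much of this variation lay between strains. For most of the genes the share was close to what a layout with no strain difference gives. This share, the broad-sense R2, sets the sum of squares between strains against the total, and it ran from 0.37 for Fezf2 to 0.514 for Lamp5 and had a median of 0.414 over the 9 genes. Its median over all 20859 genes was 0.451, and a layout of this size gives 0.3724 in the mean when no strain differs. By the moderated F-test of limma with Benjamini-Hochberg adjustment over the table, 1 of the 9 genes, Lamp5, passed a false discovery rate (FDR) of 5% (adjusted p = 0.008723). Of all genes in the table, 37.3% passed it.

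Lamp5 had strain means from 11.544 in BN-Lx/Cub to 12.025 in BXH10/Cub. The animals of BN-Lx/Cub read 11.448, 11.703 and 11.479, those of FXLE20/Stm 11.624, 11.537 and 11.52, and those of WKY/NCrl 11.822, 11.461 and 11.402. At the other end the animals of BXH10/Cub read 11.963, 11.965 and 12.148, those of LEXF5/Stm 11.895 and 12.077, and those of SR/JrHsd 12.182, 11.635 and 12.043. The animals of BN-Lx/Cub and FXLE20/Stm lay below every animal of BXH10/Cub and LEXF5/Stm, whereas WKY/NCrl and SR/JrHsd each had an animal that overlapped the other end.

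Neurod6 and Slc17a7 lay just outside the threshold, with R2 of 0.4707 and 0.47 and adjusted p of 0.05328 and 0.05574 in the same limma test. Slc17a7 strain means ran from 14.221 in BN-Lx/Cub, whose animals read 13.944, 14.43 and 14.29, to 14.805 in SR/JrHsd, whose animals read 15.086, 14.613 and 14.717. The 3 animals of BXH13/Cub, next to SR/JrHsd in the order, read 14.839, 14.719 and 14.822. BN-Lx/Cub lay wholly below both, but its own 3 animals were farther apart than the median range within a strain, 0.244. Neurod6 strain means ran from 9.9799 in HXB1/Ipcv, with animals at 9.9385, 9.8805 and 10.121, to 10.579 in BN-Lx/Cub, with animals at 10.985, 10.34 and 10.413.

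The other 6 genes did not pass. Their R2 were 0.417 for Foxp2, 0.4137 for Cux2, 0.4095 for Tbr1, 0.403 for Emx1, 0.3911 for Rorb and 0.3695 for Fezf2. Their adjusted p by the limma F-test lay between 0.2424 for Foxp2 and 0.534 for Fezf2. Of these Emx1 had strain means that spanned 0.949, yet the median range among animals of a strain was 0.447, and in WAG/RijCrl the animals were 1.13 apart. Tbr1 spanned 0.597 between strain means and up to 0.896 within HXB15/Ipcv.

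**Figure D2:**
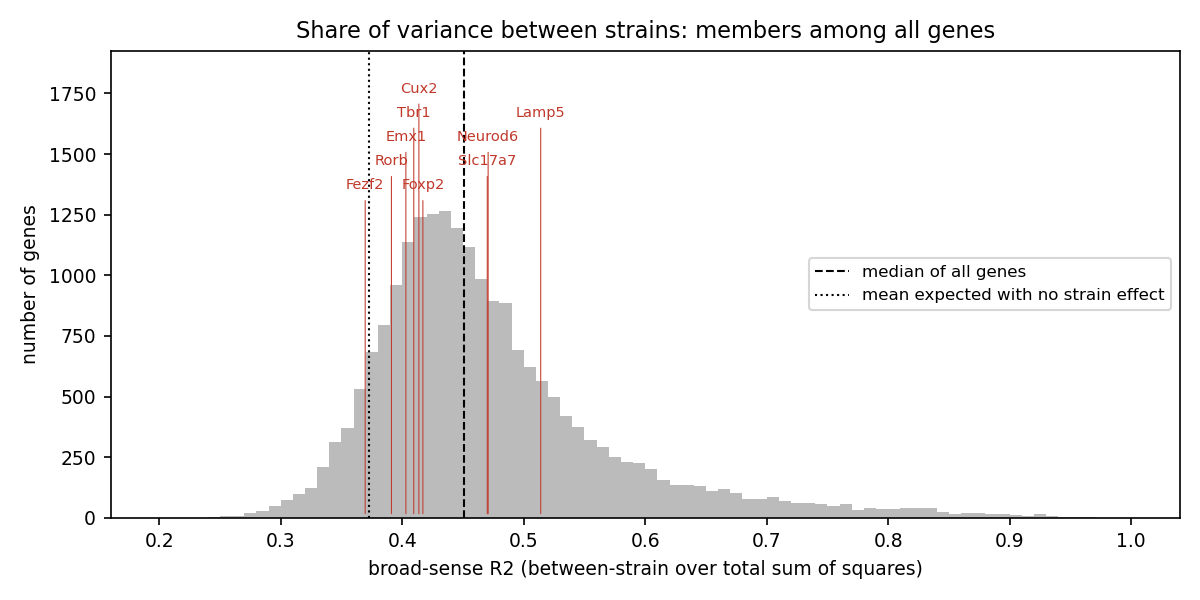
Histogram of the broad-sense R2 of strain over the 20859 genes (x axis, share of the total sum of squares between strains) with the 9 genes marked by vertical lines. Lamp5 (0.514), Neurod6 (0.4707) and Slc17a7 (0.47) lie above the median of all genes, 0.451, and the other 6 lie between that median and the value of Fezf2, 0.3695, which is below the mean of 0.3724 that a layout without strain differences gives.

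The strain effect was uneven under other fits, of which 16 were run. Lamp5 passed in 12 of them, with adjusted p by limma from 6.72e-11 to 0.173, and Rorb and Fezf2 passed in none of the 16. With the batch label of the samples as a term, in 1 library per animal, 5 of the 9 genes passed (Slc17a7, Tbr1, Cux2, Lamp5 and Emx1), as did 57.1% of all genes. Among strains with 2 or more animals, 13 were not joined to the other 56 through shared batches. Batch differences between unjoined strains stay in this strain effect. The sample titles name a sequencing batch, which differs from the batch label in 26 of 232 samples. With the batch of the title in place of the label 2 passed (45.6%), with 24 strains unjoined, and with 1 library per animal and no batch term 2 (36.9%). Without the 9 animals that went against their labels or shared a strain with one, 2 passed, against 36.2% of all genes, since Slc17a7 reached an adjusted p of 0.0495 in that limma fit. The authors' earlier version 5 table, with 132 animals of 45 strains, gave 5 of 9 against 63.6% of all genes. The version 6 table gave 1 of 9 against 32.3%, and the reconstructed genes of version 7.1 gave 0 of 9 against 20.2%. When only genes above the median level of 8.322 were tested 1 passed (34.3%). That fit does not hold Emx1, whose mean is 6.6352. When LE/Stm animal 2 and the LEW/Crl animals were left out 1 passed (36.4%). With the replicate number as a block 3 of 9 passed, against 38.3%. Lamp5 lost its call without the animals numbered 1, 2 or 3, with adjusted p of 0.0653, 0.173 and 0.142 by limma, and Neurod6 passed without those numbered 1 (limma adjusted p = 0.0142).

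Other genes of the pallium were read from a list of 16, which includes Neurod2, a transcription factor of the same neurons, and Sv2b, a synaptic vesicle protein. Of these, 8 passed the strain test, with a median R2 of 0.484. Nptx1, which encodes a secreted protein of excitatory synapses, had the lowest adjusted p, 0.000392 at an R2 of 0.567, and Sv2b, the gene of highest mean, had an R2 of 0.526 (limma, adjusted p = 0.007313). For the list of 7 glutamatergic genes of subcortical regions 1 passed, Slc17a6, the transporter VGLUT2 (R2 = 0.508, adjusted p = 0.01005). Among cells of the same forebrain, 9 of 10 genes of striatal projection neurons passed, with Penk at an R2 of 0.593, and 3 of 7 genes of GABAergic interneurons passed, with Vip at 0.582. The counts were 5 of 7 for the olfactory bulb (Eomes, 0.542), 3 of 10 for the cerebellum (Zic4, 0.507) and 2 of 12 for the hindbrain (Hoxa3, 0.537). They were 6 of 7 for oligodendrocytes (Mobp, 0.698), 4 of 6 for astrocytes (Aldh1l1, 0.584), 6 of 6 for microglia (Itgam, 0.847), 1 of 5 for the choroid plexus (Clic6, 0.492), 6 of 6 for liver genes (Ambp, 0.798) and 1 of 6 for genes of all neurons (Snap25, 0.486). The fit behind the liver count includes LE/Stm animal 2, the animal of high Alb, which is the only animal of its strain here.

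Within single panels none of the 9 genes passed the limma F-test. The share of all genes that passed was 19.1% in HXB/BXH, 4.61% in FXLE/LEXF and 19.3% in the classic inbred strains. The lowest adjusted p were 0.102 for Slc17a7 in HXB/BXH, 0.249 for Lamp5 in FXLE/LEXF and 0.108 for Neurod6 in the classic inbred strains. Without adjustment p was under 0.05 by limma for 3 of the 9 genes over all strains (Slc17a7, Neurod6 and Lamp5), for 1 in HXB/BXH (Slc17a7), for 0 in FXLE/LEXF and for 1 in the classic inbred strains (Neurod6). The shares of all genes under that p were 48.3%, 32.6%, 22.1% and 31.3% in the same order. Neurod6 passed in the classic inbred strains without the animals numbered 1 (limma adjusted p = 0.0277) and Emx1 in FXLE/LEXF without those numbered 3 (limma adjusted p = 0.028). Whether a panel differed from another in its strain effect was not tested.

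Panel means were almost the same. Slc17a7 had a mean over strains of 14.49 ± 0.122 (SD, n = 30) in HXB/BXH, 14.52 ± 0.136 (SD, n = 19) in FXLE/LEXF and 14.49 ± 0.127 (SD, n = 25) in the classic inbred strains. None of the 9 genes differed between any 2 panels in limma, and of all genes 0.00479%, 0% and 0% did. Without adjustment p was under 0.05 for Cux2 and Emx1 between FXLE/LEXF and HXB/BXH, for Lamp5 between classic inbred and HXB/BXH and for Cux2 between classic inbred and FXLE/LEXF, against 5.35%, 2.39% and 10.2% of all genes. The lowest adjusted p, 0.417 by limma, belonged to Cux2, which was lower by a log2 difference of -0.0815 (SE 0.0326) in the classic inbred than in the FXLE/LEXF strains. The study's methods give another supplier and storage for the brains of the HXB/BXH panel and its progenitors than for other classic inbred strains, and the part of source in panel differences was not tested.

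The progenitors of the HXB/BXH panel were compared directly, with 3 animals of BN-Lx/Cub and 2 of SHR/OlaIpcv. Foxp2 read 10.211, 9.8841 and 9.7708 in BN-Lx/Cub and 9.5789 and 9.4535 in SHR/OlaIpcv, a log2 difference of 0.4391 (SE 0.1489). Lamp5 read 11.448, 11.703 and 11.479 against 11.977 and 11.899, a difference of -0.3948 (SE 0.1363). Rorb, at 10.035, 9.7627 and 9.6986, exceeded the SHR/OlaIpcv animals, at 9.5448 and 9.4545, by 0.3324 (SE 0.1245). For all 3 genes the animals of the strains did not overlap, each SHR/OlaIpcv value being a mean of 12 or 6 libraries. Single libraries of SHR/OlaIpcv reached 9.8099 for Foxp2 and 9.9656 for Rorb, above the lowest BN-Lx/Cub animals, whereas for Lamp5 the lowest, 11.748, stayed above the highest BN-Lx/Cub animal. With 1 library per animal the Foxp2 difference was 0.237, and those of Lamp5 and Rorb were -0.388 and 0.314. None of the 9 genes passed the test over all genes, which 4.51% of the table did, and the adjusted p by limma were 0.06668 for Foxp2, 0.07296 for Lamp5 and 0.1059 for Rorb. Without adjustment 4 of the 9 had p under 0.05, Neurod6 being the fourth, and so did 19.2% of all genes. Without the animals numbered 3 Foxp2 passed at 0.531 (limma, adjusted p = 0.0379). Slc17a7 was lower in BN-Lx/Cub by a log2 difference of -0.2529 (SE 0.1492), which shrank to -0.0801 without the animals numbered 1, and BN-Lx/Cub animal 1 is also the lowest of all 197 animals for this gene.

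Batch was examined because the 214 libraries came from 17 batches, of which 16 are held with 1 library per animal. None of the 9 genes passed a limma F-test of batch beside strain, against 1.7% of all genes, although 1 did without the animals numbered 1 (Emx1, adjusted p = 0.0413). Without adjustment 1 of the 9, Cux2, had p under 0.05, as did 16.6% of all genes.

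Of the transcripts, 20 that belong to 8 of the genes were matched in the RefSeq transcript table, and none was for Emx1. The transcript NM_001014183.1 of Lamp5 passed the strain test (R2 = 0.521, limma adjusted p = 0.0278), the only 1 of 20 to do so, against 13.9% of all transcripts. It lost the call without the animals numbered 1, 2 or 3, when its adjusted p rose to 0.204, 0.463 and 0.36. The 7 transcripts of Cux2 had means from 5.235 to 8.571 and standard deviations over animals of up to 2.64, against 0.1669 for the gene. Values of single Cux2 transcripts were thus far more spread than those of the gene.

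The second comparison asked whether the genes moved together once strain was taken away. For this the strain mean was subtracted from each of the 192 animals in strains with 2 or more, so that every strain effect is removed. The 9 genes did not rise and fall as a single group but largely in a pair of opposed sets. Slc17a7, Emx1, Cux2, Fezf2 and, more weakly, Lamp5 formed the first, and Neurod6, Rorb and Foxp2 the second. Tbr1 went with the first set but was not opposed to the second. Its r was 0.15 with Neurod6, 0.0552 with Rorb and 0.151 with Foxp2, none of which passed. Of the 36 pairs of genes 16 were positively correlated (44.4%) and 13 negatively (36.1%) by permutation of animals within strains, with Benjamini-Hochberg adjustment over the 36. Among all pairs of genes in the table, 19.2% had a positive and 20.7% a negative correlation at least as strong as the weakest such pair.

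The sequences just before the transcription starts of 4 genes are given here, Slc17a7 and Emx1 from the first set, Tbr1, which is more weakly tied to them, and Neurod6 from the second, so that sites of the kind bound by factors among the 9 genes can be looked for in genes that move together or apart. They are the 250 bases before the annotated start in RefSeq on the GRCr8 build, read 5′ to 3′ on the strand of the gene. Slc17a7 lies at chr1:104785955-104786204 on the plus strand, Emx1 at chr4:119282442-119282691 on the plus strand, Neurod6 at chr4:86180156-86180405 on the minus strand and Tbr1 at chr3:66759553-66759802 on the plus strand. Capitals mark CAGNTG, the E-box of proneural factors such as Neurod6, on the strand of the gene only. They also mark AGGTGT, the core of T-box sites such as those of Tbr1 (in Neurod6 on the other strand), and TAATTA, a homeobox core.
Slc17a7: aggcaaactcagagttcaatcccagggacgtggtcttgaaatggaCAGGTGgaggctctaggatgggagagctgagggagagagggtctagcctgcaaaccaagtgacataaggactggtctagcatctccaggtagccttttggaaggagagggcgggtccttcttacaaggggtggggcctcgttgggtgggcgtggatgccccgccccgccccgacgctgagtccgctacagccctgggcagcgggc
Emx1: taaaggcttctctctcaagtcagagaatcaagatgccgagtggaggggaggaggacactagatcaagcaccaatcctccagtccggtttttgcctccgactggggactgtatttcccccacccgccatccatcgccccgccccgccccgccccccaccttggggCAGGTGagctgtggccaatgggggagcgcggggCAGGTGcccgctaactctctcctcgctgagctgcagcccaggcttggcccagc
Neurod6: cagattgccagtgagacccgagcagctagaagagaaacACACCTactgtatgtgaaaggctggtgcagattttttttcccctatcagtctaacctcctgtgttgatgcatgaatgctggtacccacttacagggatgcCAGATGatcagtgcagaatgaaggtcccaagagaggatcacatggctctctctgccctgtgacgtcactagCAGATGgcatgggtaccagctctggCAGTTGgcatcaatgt
Tbr1: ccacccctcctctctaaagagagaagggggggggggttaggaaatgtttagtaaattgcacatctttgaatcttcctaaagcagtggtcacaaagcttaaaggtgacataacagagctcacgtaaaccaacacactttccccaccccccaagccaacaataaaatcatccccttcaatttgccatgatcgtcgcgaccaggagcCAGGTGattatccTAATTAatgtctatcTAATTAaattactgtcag

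Promoters were found for 8 of the 9 genes. AGGTGT was searched on both strands, and TAATTA reads the same on both. CAGNTG was searched only on the strand of the gene, in these genes as in all promoters. Its form on the other strand, CANCTG, was not counted. CAGNTG was present in 4 of the 8, against 29.7% of the 27457 promoters of the table. It began at -205 in Slc17a7, at -86 and -53 in Emx1, at -112, -41 and -16 in Neurod6 and at -46 in Tbr1, counted from the start with -1 as the base before it. AGGTGT was present in 1 of the 8, Neurod6, at -212, against 11.4% of promoters, and TAATTA in 1, Tbr1, at -33 and -18, against 4.94%. No match of 1 motif overlapped a match of another. The GC content ran from 44.0% in Tbr1 to 72.4% in Cux2, around a median of 52.0% over all promoters. On the strand of the gene CAGNTG was thus present in both sets, in Slc17a7 and Emx1 as in Neurod6. On that strand it was in none of the windows of Cux2, Fezf2, Rorb and Lamp5.

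In the first set Slc17a7 and Emx1 were tied most closely. Their deviations had a Pearson r of 0.716 and a Spearman rho of 0.705 over 192 animals, with permutation adjusted p of 2.571e-05 and 2.4e-05, which come from the smallest p that 100000 permutations can give (1e-05). Without the 2 animals farthest from the median of Slc17a7 the r was 0.707. Cux2 and Emx1 had an r of 0.671 (rho = 0.682), Slc17a7 and Fezf2 0.622 (rho = 0.577), Slc17a7 and Cux2 0.593 (rho = 0.574), and Cux2 and Fezf2 0.526 (rho = 0.506). An animal whose value of Slc17a7 was above that of its strain thus tended to have higher values of Emx1, Cux2 and Fezf2. Most animals have 1 library, so movement between animals is not separated here from movement between libraries. Tbr1 joined this set through Cux2 (r = 0.524, rho = 0.477) and Fezf2 (r = 0.386, rho = 0.328) more than through Emx1 (r = 0.207, rho = 0.18). The rank correlation of Tbr1 with Emx1 did not pass (permutation adjusted p = 0.06517). In the reconstructed genes of version 7.1 Tbr1 had the opposite sign, at -0.312 with Cux2 and -0.239 with Emx1.

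In the second set Neurod6 and Foxp2 had an r of 0.594 (rho = 0.583), Rorb and Foxp2 0.571 (rho = 0.554), and Neurod6 and Rorb 0.544 (rho = 0.536), each with the permutation adjusted p of 2.571e-05. Between the sets the sign turned. Slc17a7 had an r of -0.544 with Rorb (rho = -0.548), -0.542 with Foxp2 (rho = -0.548) and -0.333 with Neurod6 (rho = -0.339). Emx1 and Foxp2 stood at -0.408, Neurod6 and Cux2 at -0.42, and Rorb and Lamp5 at -0.429. All 13 negative pairs that passed joined a gene of the first set to one of the second, and Tbr1 was in none of them. The sets were drawn from the signs of these same pairs, so this is a description and not a test of the split.

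**Figure D3:**
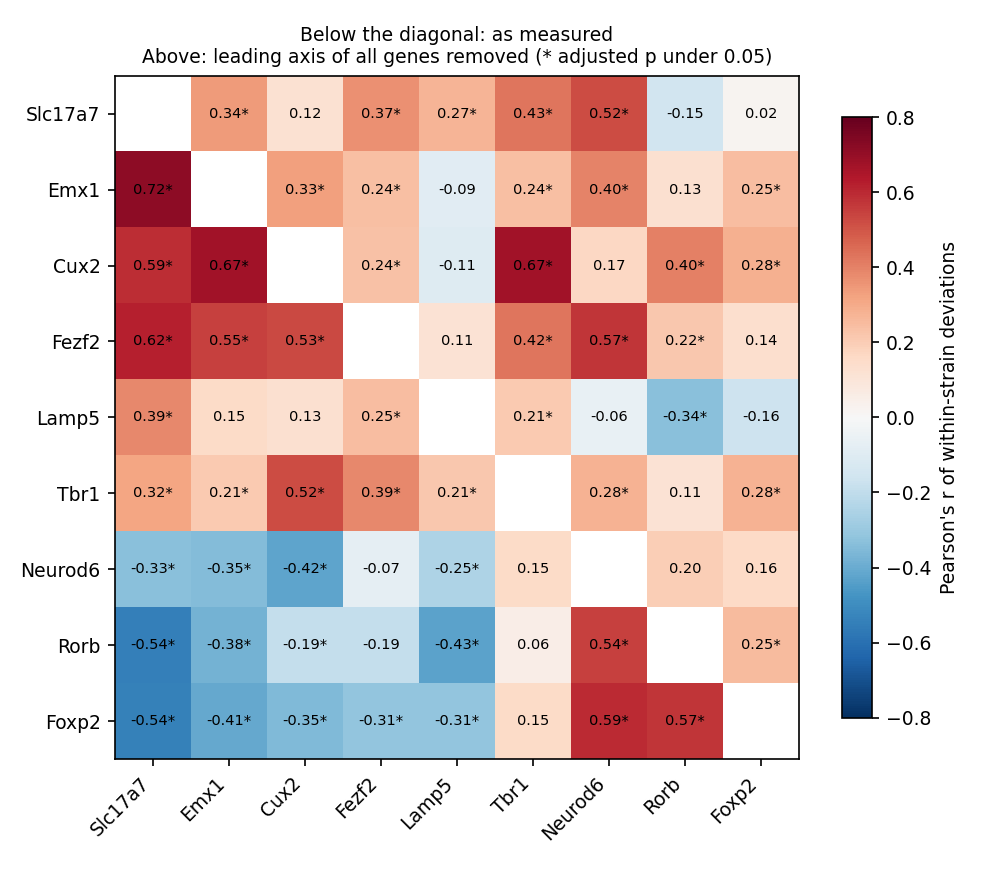
Matrix of Pearson's r of within-strain deviations between the 9 genes over 192 animals, coloured from negative to positive, as measured below the diagonal and with the leading axis removed above it, with an asterisk where the permutation adjusted p was under 0.05. Before removal Neurod6, Rorb and Foxp2 are positive with each other (0.544 to 0.594) and mostly negative with the rest, and after removal most pairs are positive.

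The correlations were computed again with animals left out and within batches. All 29 pairs that passed kept their sign without the 2 animals farthest from the median, and r moved by at most 0.0394. The median of the correlations within single batches, over the 15 batches with 6 or more such animals, had the same sign for all 29, but single batches did not always. The sign was the same in 9 of 15 batches for Rorb and Cux2, in 10 for Slc17a7 and Tbr1 (-0.458 to 0.88), in 12 for Slc17a7 and Foxp2 (-0.93 to 0.724) and in all 15 for the closest pair, Slc17a7 and Emx1. For Slc17a7 and Emx1 the within-batch r ran from 0.279 to 0.922 with a median of 0.757, and for Slc17a7 and Rorb from -0.934 to -0.185 with a median of -0.518. Of the 29 pairs, 27 had the same sign in the HXB/BXH panel (88 animals), 25 in FXLE/LEXF (40 animals) and 29 in the classic inbred strains (64 animals). Without the 9 animals described above, 15 positive and 12 negative pairs passed, and 18.2% and 12.9% of all gene pairs were at least as strong as the weakest of these. Without the animals numbered 1 the counts were 10 and 7, against 8.14% and 11.4%.

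The opposition followed a pattern that ran through the whole transcriptome. The first principal component of the within-strain deviations, taken over the 10421 genes above the median level that are not among the 9, held 37.2% of their variance. This leading axis was computed after the opposition had been seen. Its correlation with the deviations of the 9 genes, given as a description, was 0.774 for Slc17a7, 0.738 for Emx1, 0.695 for Cux2, 0.553 for Fezf2, 0.286 for Lamp5 and 0.059 for Tbr1. It was -0.603 for Rorb, -0.712 for Foxp2 and -0.724 for Neurod6. These are not rare values: 30.7% of the genes above the median level had a correlation over 0.5 with it and 31.7% one below -0.5. The genes at its positive end were Ipo13, an importin, Sbf1, Plxna1, a semaphorin receptor, Cpt1c and Atp9a (0.92 to 0.926), and those at its negative end Eif5, a translation initiation factor, Ptbp2, a neuronal splicing regulator, Atp13a3, Kpna4 and Wapl (-0.937 to -0.946).

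Animals at the ends of the axis are shown next. SR/JrHsd animal 1, at 2.95 standard deviations, was above its strain mean by 0.281 for Slc17a7 and 0.45 for Emx1, with deviations of -0.366 for Rorb and -0.401 for Foxp2. BN-Lx/Cub animal 1, at -2.67, had deviations of -0.277 for Slc17a7 and -0.397 for Cux2, and was above its strain mean by 0.406 for Neurod6 and 0.256 for Foxp2. BN-Lx/Cub animal 2, from the same strain and the same batch 3, lay at 2.04, with 0.209 for Slc17a7 and -0.239 for Neurod6. Others followed the sets in part, as ACI/SegHsd animal 3, at -2.39, had -0.302 for Slc17a7 but -0.00673 for Neurod6, and MWF/Hsd animal 1, at -2.3, had -0.261 for Slc17a7 but 0.219 for Tbr1. Batch means of the axis ran from -0.768 (batch 8) to 0.456 standard deviations (batch 3). RNA quality was not recorded in the labels, and its part in the axis was not tested.

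With the leading axis removed from each gene by regression, more of the pairs were positive, 30 of 36 against 21. Positive pairs that passed rose from 16 to 21, and negative ones fell from 13 to 1, Rorb and Lamp5 (r = -0.336, permutation adjusted p = 0.001735). Of all gene pairs 11.8% and 2.84% were at least as strong in these directions. Lamp5 stayed negative with Foxp2 (-0.163) and Neurod6 (-0.0621), and Slc17a7 with Rorb (-0.153), none of them past the test. The median r of the 36 pairs was 0.239, against 0.0018 over all gene pairs, and before removal it was 0.15 against -0.0006. Of the 13 negative pairs 9 turned positive, and 5 of these passed: Slc17a7 and Neurod6 at 0.52, Rorb and Cux2 at 0.402, Neurod6 and Emx1 at 0.399, Cux2 and Foxp2 at 0.283 and Foxp2 and Emx1 at 0.249. Tbr1 and Cux2 became the closest pair at 0.673. The tie of Slc17a7 to Emx1 fell from 0.716 to 0.338 and that of Slc17a7 to Cux2 from 0.593 to 0.12, the latter no longer past the test (permutation adjusted p = 0.2517).

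Libraries of the same strain and replicate number were compared next. The table holds 12 libraries of SHR/OlaIpcv animal 1 from 12 batches, on the reading that a shared strain and replicate number mark the same animal. Over these 12 libraries Slc17a7 ran from 14.093 (batch 11) to 14.746 (batch 13), Emx1 from 5.633 (batch 11) to 6.801 (batch 13) and Rorb from 9.355 (batch 16) to 9.966 (batch 11). Slc17a7 had an r of 0.919 with Emx1, -0.74 with Rorb and -0.677 with Neurod6, and 0.812, -0.295 and -0.622 without the library of batch 11, which lay farthest out on the axis. Tbr1 went the other way from its sign between animals, at -0.548 with Slc17a7 and -0.668 with Emx1, and stood at 0.137 and 0.00214 without that library. The sign matched that between animals in 23 of the 29 pairs that passed. The standard deviation over these libraries was 0.177 for Slc17a7, against 0.164 between animals of a strain, and the ratio of the 2 ran from 0.656 for Lamp5 to 1.13 for Emx1. The spread of the axis over them was 1.29 times that between animals of a strain. Without the library of batch 11 the ratio was lower for Emx1 (0.674), Slc17a7 (0.762), Rorb (0.585), Tbr1 (0.629) and Fezf2 (0.824), and that of the axis was 0.994. It moved little for Neurod6 (0.805), Cux2 (0.984), Foxp2 (0.98) and Lamp5 (0.679). SHR/OlaIpcv animal 4, with 6 libraries, gave the same sign in 17 of the 29 pairs and a ratio of 0.798 for the axis. Its ratios for single genes ran from 0.339 for Emx1 to 1.27 for Foxp2, with 0.537 for Slc17a7.

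**Figure D4:**
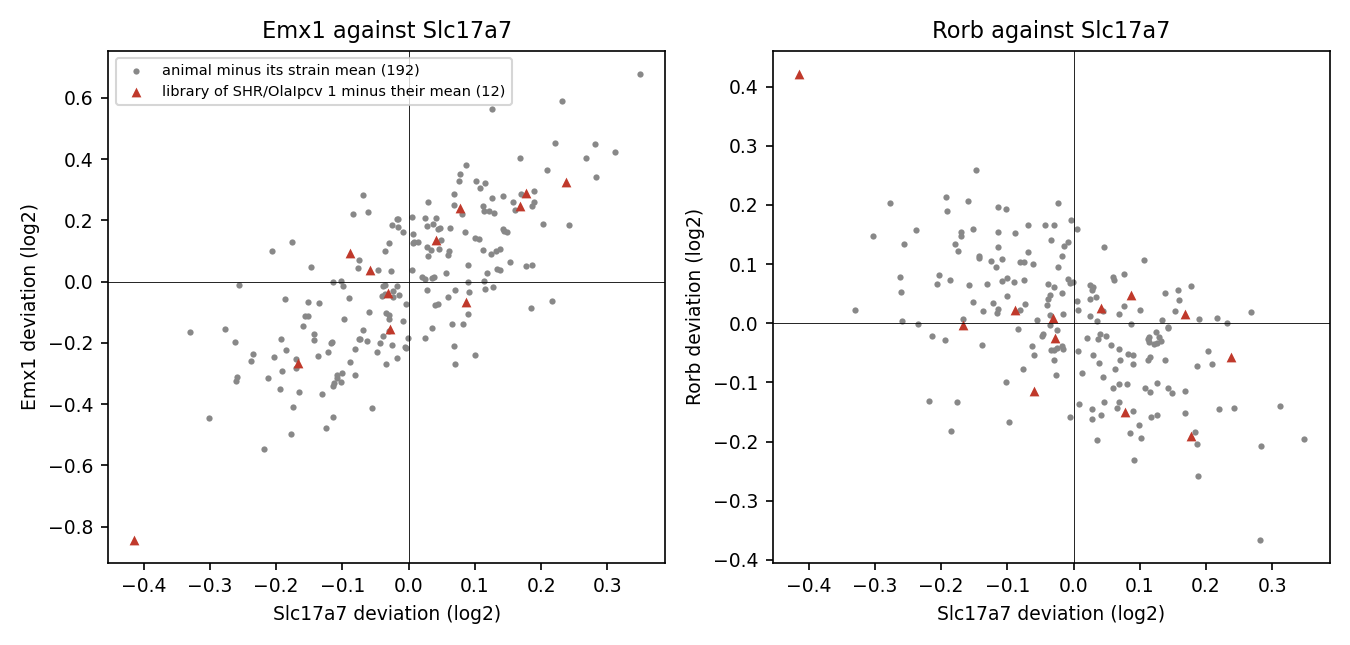
Within-strain deviation of Slc17a7 (x axis, log2) against that of Emx1 and of Rorb (y axes, log2). Grey points are the 192 animals, and coloured points are the 12 libraries of SHR/OlaIpcv animal 1, each minus the mean of the 12. Emx1 rises with Slc17a7 (r = 0.716 between animals, 0.919 between libraries) and Rorb falls (-0.544 and -0.74).

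With the leading axis as a covariate 3 of the 9 genes passed the strain test, Lamp5 (limma adjusted p = 0.00301), Neurod6 (0.0105) and Foxp2 (0.027), against 49.1% of all genes. With batch and the axis as covariates 3 passed, Lamp5, Neurod6 and, in place of Foxp2, Tbr1 (limma adjusted p = 0.0494), against 50.5%. Strain explained 0.4052 of the variation of the axis itself, where a layout with no strain difference gives 0.3724 in the mean. With the axis as covariate and no batch term, the BN-Lx/Cub difference from SHR/OlaIpcv was -0.0413 for Slc17a7, where it had been -0.2529. It was 0.245 for Foxp2, where it had been 0.4391. For other genes it was larger, at 0.404 for Emx1 (0.0527 before), 0.25 for Fezf2 (0.0663 before) and 0.167 for Cux2 (-0.0197 before). None of these 5 passed the limma test with or without the covariate.

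Over the means of the 69 strains with 2 or more animals the correlations were computed again. By permutation of strains 16 pairs were positive and 6 negative at an adjusted p under 0.05, and 13.8% and 12% of all gene pairs were at least as strong as the weakest such pair. Slc17a7 and Emx1 had an r of 0.714 (rho = 0.698, r without 2 strains 0.691), Slc17a7 and Fezf2 0.687 (rho = 0.639, without 2 strains 0.651), Neurod6 and Rorb 0.586 (rho = 0.548, without 2 strains 0.549) and Slc17a7 and Rorb -0.458 (rho = -0.467, without 2 strains -0.442). With Spearman's rho 11 positive and 5 negative pairs passed, against 7.77% and 10.1% of all pairs. The negative count moved with the processing. It was 12 with batch (26.2% of all pairs), 12 with the title batch (25.1%), 10 in version 6 (15.4%), 2 without the animals numbered 1 (6.93%) and 1 in version 5 (1.95%). Strain means carry the within-strain spread of 2 or 3 animals each, and these correlations are not separate from those between animals.

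The genes were then set against the mean standardised deviation of each of the 13 marker lists for other cells and regions, 117 pairs in all. By permutation within strains 20 were positive and 9 negative, and 9.69% and 8.61% of the pairs formed by all genes were at least as strong. The 9 negative pairs were thus a smaller share of the 117 than among all genes. These counts fell to 4 and 2 without the animals numbered 1 (2.49% and 1.3% of the pairs formed by all genes) and to 3 and 1 without those numbered 3 (1.04% and 1.27%), and the negative count to 5 without those numbered 2 (6.18%). The list of 16 other pallial genes was positive for 6 of the 9 genes, against 6.19% of all genes: Tbr1 at 0.748 (rho = 0.726, without 2 animals 0.748), Fezf2 at 0.494 (rho = 0.434, without 2 animals 0.453), Cux2 at 0.417, Slc17a7 at 0.403, Neurod6 at 0.396 and Emx1 at 0.302. Slc17a7 and Neurod6, which opposed each other, thus both rose with the other pallial genes. The adjusted p of these 6 ran from 0.000234 to 0.01071, and Rorb (0.187), Foxp2 (0.186) and Lamp5 (0.146) did not pass. Slc17a7, Cux2, Fezf2 and Emx1 lost the call without the animals numbered 1 (r = 0.243 to 0.472), Cux2 and Emx1 without those numbered 2, and these 4 and Neurod6 without those numbered 3 (r = 0.27 to 0.476). With the axis removed 7 genes passed, against 12.4% of all genes. Slc17a7 was then at 0.684 and Foxp2, the added gene, at 0.247.

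Oligodendrocyte genes were negatively related to Tbr1 (r = -0.513), Slc17a7 (-0.369), Fezf2 (-0.362) and Cux2 (-0.336), with permutation adjusted p from 0.000234 to 0.004267. Taken over all lists, negative pairs as strong were no rarer among all genes, and the share for each list below was not computed. Hindbrain genes were negatively related to Neurod6 (-0.347), Fezf2 (-0.336) and Tbr1 (-0.279), and cerebellar genes to Emx1 (-0.228). The list of all neurons was positive for 5 genes, Tbr1 (0.642), Cux2 (0.355), Lamp5 (0.317), Foxp2 (0.265) and Rorb (0.258). Interneuron genes were positive for Neurod6 (0.312), Slc17a7 (0.278) and Foxp2 (0.245), and striatal genes for Slc17a7 (0.331) and Emx1 (0.31). After removal of the axis the striatal values of Slc17a7 (0.232) and Emx1 (0.201) did not pass, and that of Foxp2 (0.373) did. Slc17a7 also lost its striatal call without the animals numbered 1 (r = 0.0694). Microglial genes were positive for Emx1 (0.318), Cux2 (0.282) and Fezf2 (0.251) and negative for Lamp5 (-0.29), and their list had itself a correlation of 0.412 with the leading axis. With the axis removed the 3 positive values were 0.0236, -0.00154 and 0.0305, which did not pass, and Lamp5 stood at -0.452. Rorb (0.419) and Neurod6 (0.261) then passed as positive and Slc17a7 (-0.23) as negative. Astrocyte genes were positive for Cux2 (0.223, permutation adjusted p = 0.04119). With the axis removed Cux2 did not pass (0.129), and Rorb (0.395), Slc17a7 (-0.377) and Emx1 (-0.302) did. No gene passed with the subcortical glutamatergic, olfactory bulb, choroid plexus or liver lists before the axis was removed. After it Rorb (0.271) and Foxp2 (0.251) were positive and Slc17a7 negative (-0.254) with the subcortical list. With the axis removed the negative pairs rose from 9 to 16, with 5 for oligodendrocytes and 5 for the hindbrain, against 8.86% of all pairs. With batch as a term beside strain, in 1 library per animal, Tbr1 lost its call with the hindbrain list, Emx1 with the cerebellar list, Cux2 with the astrocyte list, Cux2, Fezf2 and Lamp5 with the microglial list, and Rorb and Foxp2 with the list of all neurons (permutation adjusted p from 0.0624 to 0.143). Their r stood at -0.192 and -0.155 for the first pair of calls, 0.202 for the astrocyte list, 0.198, 0.205 and -0.217 for the microglial list and 0.23 and 0.241 for the list of all neurons. In the same setting 6 other calls were gained, Rorb with the oligodendrocyte (0.255) and astrocyte (0.24) lists, Lamp5 with the oligodendrocyte list (-0.23), Cux2 with the striatal list (0.219), and Fezf2 (0.264) and Emx1 (0.253) with the interneuron list. The part of dissection or of cell content in these relations was not tested.

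**Figure D5:**
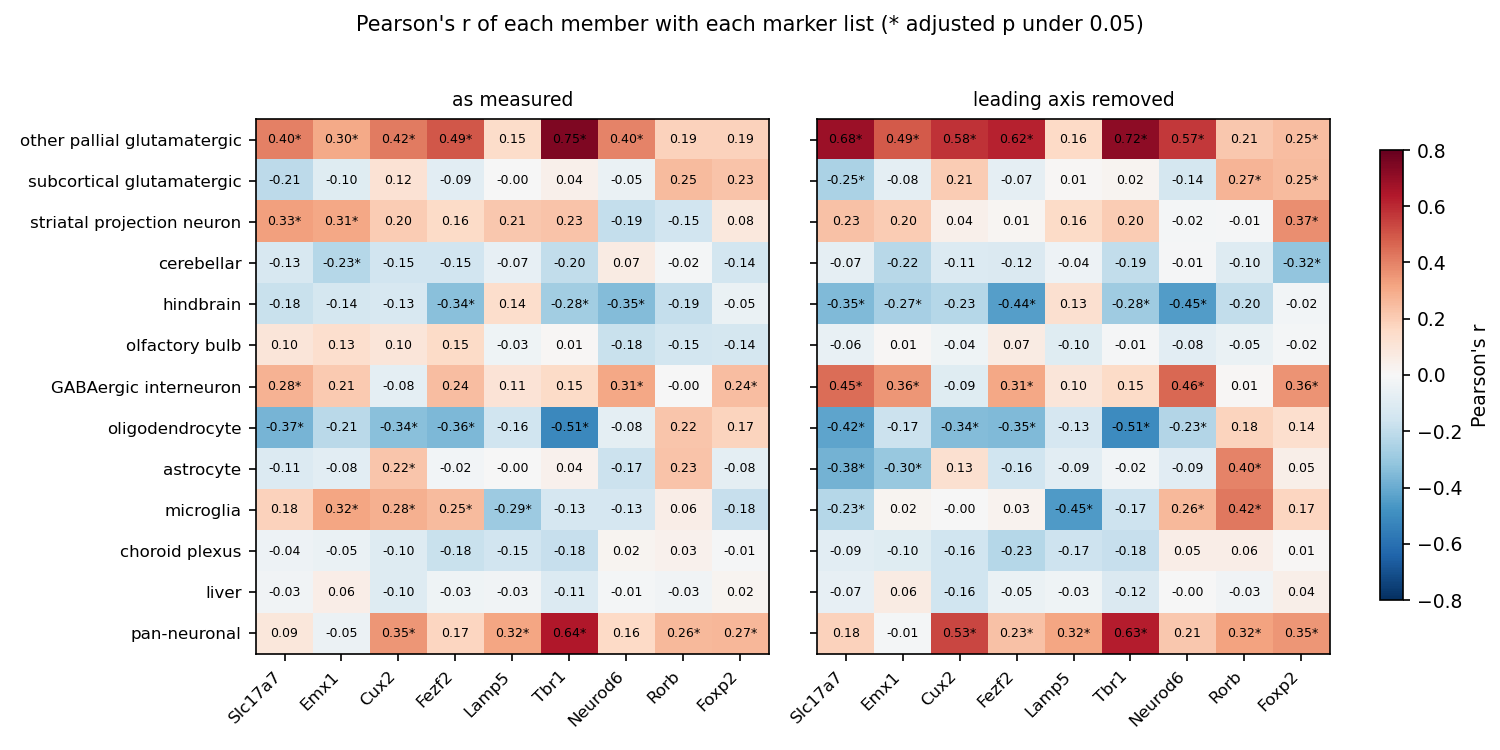
Pearson's r of the within-strain deviations of each of the 9 genes (columns) with the mean of each of 13 marker lists (rows) over 192 animals, before and after removal of the leading axis, with an asterisk where the permutation adjusted p was under 0.05. The other pallial list is positive for 6 genes before and 7 after, strongest for Tbr1 (0.748), and the oligodendrocyte list is most negative for Tbr1 (-0.513).

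With the other pallial list as a covariate in the fit over strains, 2 of the 9 genes passed, Lamp5 (limma adjusted p = 0.0253) and Tbr1 (0.0411), against 37.9% of all genes. The slope of a gene on the list, in log2 per standard unit, was 0.364 for Tbr1 (SE 0.029), 0.216 for Fezf2 (SE 0.0341), 0.193 for Emx1 (SE 0.0533), 0.151 for Cux2 (SE 0.0289), 0.148 for Neurod6 (SE 0.0313) and 0.146 for Slc17a7 (SE 0.0297), all past the limma test. It was 0.0657 for Foxp2, 0.0561 for Rorb and 0.046 for Lamp5, which did not pass. Without the animals numbered 1, 2, 3 or 4 in turn, 0 or 1 of the genes passed the strain test beside this list, against 14.2% to 36% of all genes. With the cerebellar and hindbrain lists as covariates 2 passed, Lamp5 (limma adjusted p = 0.0126) and Neurod6 (0.0469), against 35.8% of all genes. Lamp5 lost this call without the animals numbered 1, 2 or 3 and Neurod6 without those numbered 2, 3 or 4, and 0 or 1 genes then passed, against 13.1% to 33.9%.

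Genes most like the 9 were sought among 9934 named genes above the median level, by their correlation with the mean standardised deviation of the 9 over 192 animals, as a description. Among the 10 highest were Olfm1, a secreted glycoprotein of neurons, at 0.79, Kalrn, a guanine nucleotide exchange factor of dendritic spines, at 0.765, and Mrtfb at 0.748. Arhgap32, Enc1, Kctd1, Rasgrf2, Egr3 and Dlgap2 were also among them, down to 0.72. Olfm1 was near 0 on the leading axis, at 0.0794, and its likeness was 0.797 with the axis removed. At the other end were Rassf8 (-0.634), Kat2b, a histone acetyltransferase (-0.554), Lgals8 (-0.548), Ppt1 (-0.547) and Armh4 (-0.541).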

How the data were processed

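The main data were the version 7.1 RefSeq gene values of rat brain, which the authors deposited on a log2 scale. The study's methods name no data version and were read here as those of version 5, since both hold 45 strains. Per these methods reads were trimmed, ribosomal reads removed, and the rest aligned to strain-specific rn6 genomes and counted with RSEM. The counts were adjusted for 1 factor of unwanted variation and regularized-log transformed. That adjustment could remove or add shared movement between genes. The study's methods do not say how versions 6 and 7.1 were made. The submitters' processing notes name cutadapt 1.9.1, Bowtie2 2.3.4.3 or 2.4.5, HISAT2 2.1.0 or 2.2.1, StringTie 1.3.5 or 2.2.1, RSEM 1.3.1 or 1.3.3 and DESeq2. These tools were not matched here to the single data versions. In other deposited tables single values are too high for a log2 read count, and such columns, a score rather than a strict log2, were taken on the log2 scale. No counts were given, so no counting interval was computed, and the number of animals limits the precision.

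The 73 spike-ins were left out. Libraries of the same strain and replicate number were averaged to 1 animal. Per the study's methods, brains of the HXB/BXH panel and its progenitors were shipped frozen from the institute that kept them, and the other strains described there came from commercial suppliers, with brains kept in RNAlater. The p-values of the strain tests set differences between strains against the spread between animals of a strain. That spread also holds differences between libraries and between batches. Strain effects were tested with limma 3.58.1 in R 4.3.3 and adjusted by Benjamini-Hochberg over the table at an FDR of 0.05. Correlations were tested by two-sided permutation within strains or of strain means (100000 permutations, 10000 for alternatives), in Python 3.11.15 with numpy 2.4.6. Clusters came from mclust 6.1.1. On simulated data with 200 of the genes changed, the strain test recovered 100 of 100 genes at a strain SD of 1 animal SD and 100 of 100 at 2, and called 19 of 20659 unchanged genes. No smaller strain SD was simulated, and the noise was drawn separately for each gene. How often the test finds weaker strain effects is therefore unknown. No column of another sample was used. All 9 genes are named. From each other list the gene of lowest adjusted p, some genes of highest mean, and the 10 genes most and 5 least like the 9 are named. The members and lists were chosen with earlier results of these data known. Among the 10 genes most like the 9, 1 is not reported here.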

Additional observations from a re-analysis of the deposited data

How the results depend on the processing

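Of the 9 genes, 5 passed the strain test with batch as a term, 2 with the batch of the sample title, 3 with a replicate block, 2 with 1 library per animal, 0 in the reconstructed genes of version 7.1, 5 in version 5, 3 with the leading axis as a covariate and with axis and batch, and 2 without animals against their labels, where 57.1%, 45.6%, 38.3%, 36.9%, 20.2%, 63.6%, 49.1%, 50.5% and 36.2% of all genes passed. Across strains the labels tie a replicate number to no shared litter or day: deviations of animals of different strains with the same number had a mean correlation of 0.0218 (41.0% of pairs over 0.1), and with other numbers -0.0104 (36.6%). Under that block Slc17a7 and Neurod6 were added to Lamp5 (38.3% of all genes passed). With batch added, 5 genes passed beside the pallial list (56.8% of all genes), 4 beside the cerebellar and hindbrain lists (53.2%), and 2 transcripts passed (22.5% of all). In every strain test with batch, strains not joined through shared batches keep their batch differences in the strain term. With the pallial list subtracted at a slope of 1 there were 0 (49.4%).

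Leaving out the animals of 1 replicate number gave 0 to 1 genes with a strain effect (14.4% to 35.2% of all genes), 0 to 1 between BN-Lx/Cub and SHR/OlaIpcv (0.949% to 6.18%), 0 to 1 within the classic inbred (5.75% to 17.2%) and within the FXLE/LEXF strains (0.288% to 6.52%), 0 to 1 beside the pallial list (14.2% to 36%), 0 to 1 beside the cerebellar and hindbrain lists (13.1% to 33.9%), 0 to 1 for batch (0.197% to 5.21%) and 0 to 1 for transcripts (4.83% to 13.0% of all transcripts). It gave 10 to 16 positive and 7 to 13 negative pairs within strains (6.2% to 19.5% and 10.9% to 20.7% of all gene pairs were as strong), 12 to 15 and 2 to 9 over strain means (5.7% to 11.8% and 6.93% to 13.8%), and 3 to 20 and 1 to 9 against the lists (1.04% to 11.3% and 1.27% to 8.84%).

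Negative pairs within strains numbered 6 in version 5 (9.69% of all gene pairs), 1 with the axis removed (2.84%) and 1 with axis and batch removed (4.32%). Over strain means they numbered 12 with batch (26.2%), 12 with the title batch (25.1%), 10 in version 6 (15.4%) and 1 in version 5 (1.95%). Against the lists there were 16 with the axis removed (8.86%).

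Signs turned as follows for pairs that had passed. With the axis removed they were 0.52 for Slc17a7 and Neurod6, 0.0209 for Slc17a7 and Foxp2, 0.168 for Neurod6 and Cux2, 0.399 for Neurod6 and Emx1, 0.402 for Rorb and Cux2, 0.127 for Rorb and Emx1, 0.283 for Cux2 and Foxp2, 0.137 for Fezf2 and Foxp2, and 0.249 for Foxp2 and Emx1. With axis and batch removed the same pairs were at 0.544, 0.0181, 0.143, 0.423, 0.377, 0.163, 0.247, 0.148 and 0.263, and Neurod6 and Lamp5 at 0.000373. In the reconstructed genes Tbr1 turned with Slc17a7 (-0.0308), Cux2 (-0.312), Fezf2 (-0.0184) and Emx1 (-0.239), and over strain means with Cux2 (-0.25). The Tbr1 feature there has a mean of 13.67, against 10.61 in the RefSeq table. In version 5 Rorb and Cux2 stood at 0.159 within strains, and over strain means Slc17a7 stood at 0.292 with Neurod6, -0.00964 with Lamp5 and 0.136 with Foxp2, Tbr1 and Lamp5 at -0.0655, Neurod6 at 0.201 with Cux2 and 0.328 with Emx1, and Cux2 and Foxp2 at 0.232. With batch, over the 56 strains joined through shared batches, Lamp5 stood at -0.101 with Slc17a7, -0.451 with Tbr1 and -0.0568 with Fezf2. With the title batch (45 strains) Tbr1 stood at -0.194 with Slc17a7, -0.0484 with Fezf2 and -0.264 with Lamp5. Cux2 and the microglial list stood at -0.00154 with the axis removed. The cause of these turns was not tested. The axis was computed after the opposition had been seen, and its removal is a description.

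The other alternatives, for the counts of genes and pairs, stayed within 1.5 times the value reported, 129 values in all. The axis, and leaving out the animals against their labels, were chosen after seeing the data. Without LE/Stm 2 and LEW/Crl alone, 1 gene passed and 16 positive and 13 negative pairs. The depth of each library is unknown.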
